A study of Mus musculus with 12 samples.

Results

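EphB receptors and ephrin-B ligands were followed in RNA-seq of the mouse brain after cranial irradiation. The family held 8 of the 23183 genes listed in each library, namely the receptors *Ephb1*, *Ephb2*, *Ephb3*, *Ephb4* and *Ephb6* and the ligands *Efnb1*, *Efnb2* and *Efnb3*, each taken by its exact gene symbol. The family was chosen by its readout: the measured levels of *Ephb3* in IR and Con libraries of both regions, and the difference between those regions, had been seen when it was singled out. Values of *Ephb3* are therefore given as a description without a test, and every count of tested members is over the other 7. Those 7 and the gene lists below were also chosen with earlier results of these data known.

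Eph receptors are receptor tyrosine kinases, and their ephrin ligands are themselves fixed to the membrane of a neighbouring cell, so that contact between cells is needed for signaling. Ephrin-B ligands span the membrane and can signal backward into the cell that carries them, while ephrin-A ligands are held by a lipid anchor. In the brain, EphB and ephrin-B are known for axon guidance, the formation of dendritic spines, the clustering of NMDA receptors and the migration of neural progenitors, and in vessels for the border between arteries and veins.

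The libraries came from bulk cortex and hippocampus tissue of male C57BL/6 mice, bought at 7 weeks of age and acclimatized for 1 week. IR mice received a single 10 Gy dose of X-rays to the whole brain, and Con mice were placed on the same platform without exposure. Tissue was taken 3 months later, and each region had 3 Con and 3 IR libraries, 12 in all. No allele or other agent was part of the design, and all mice shared the same strain and sex.

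Levels are FPKM, which count sequenced fragments relative to transcript length and to the size of the library, so that genes can be compared per length. FPKM summed to 359773 to 393447 per library, and 3513 genes were at 0 in every library. The depth in reads is unknown, and low-value steps put each library at 1 to 1.12 times the depth of Con 1 of its region. In the cortex this estimate was 1 to 1.005 in Con and 1.010 to 1.051 in IR. In the hippocampus it was 1 to 1.073 in Con and 1.083 to 1.122 in IR. Every IR library was thus estimated deeper than every Con library of its region, and whether this bears on the differences was not tested. The tissue labels were checked against markers: 7 of 7 cortical layer genes were lower, and 6 of 6 dentate granule cell genes and 6 of 7 hippocampal pyramidal genes higher, in hippocampus Con than in cortex Con (limma, adjusted p under 0.05). Column names of the cortex and hippocampus values carry different endings, whose meaning is not stated. A difference between regions cannot be told apart from whatever these endings mark. Nothing in the labels says that libraries of a group came from separate animals, or whether a cortex and a hippocampus library came from the same mouse, so p-values measure the spread between these libraries, and an exact permutation test of 3 against 3 libraries cannot go below 0.1. The library hippocampus Con 3 stood apart in its weight on the tests: without it, limma called 861 genes between IR and Con in the hippocampus at an adjusted p under 0.05, against 4 with it. In bulk tissue, fewer cells of a type and less RNA per cell cannot be told apart.

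The window around a start site is shown for the 3 members whose levels differed most between IR and Con in a region, chosen after their values were seen. *Ephb3* lies on chromosome 16, 21204755 to 21223305 (GRCm38, plus strand, 18.6 kb). *Ephb2* lies on chromosome 4, 136647539 to 136835988 (minus strand, 188 kb), and *Efnb1* lies on the X chromosome, 99136130 to 99148991 (plus strand, 12.9 kb). Each window, from RefSeq on GRCm38.p6, runs 5′ to 3′ on the gene's own strand from 250 bases before the start site to 50 after it, and 7 of the 8 members had a window. Capitals mark matches on either strand to GTGGGCG (the core bound by EGR factors), TGACG (part of a cAMP response element), GGGCGG (a GC box) and CCAAT.
Ephb3, chr16:21204545-21204844, plus strand: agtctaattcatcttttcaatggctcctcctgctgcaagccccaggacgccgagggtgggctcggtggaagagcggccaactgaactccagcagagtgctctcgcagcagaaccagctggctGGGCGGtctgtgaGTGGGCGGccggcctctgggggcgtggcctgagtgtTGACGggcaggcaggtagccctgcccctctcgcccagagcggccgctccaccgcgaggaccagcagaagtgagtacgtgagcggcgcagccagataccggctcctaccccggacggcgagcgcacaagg
Ephb2, chr4:136835963-136836262, minus strand: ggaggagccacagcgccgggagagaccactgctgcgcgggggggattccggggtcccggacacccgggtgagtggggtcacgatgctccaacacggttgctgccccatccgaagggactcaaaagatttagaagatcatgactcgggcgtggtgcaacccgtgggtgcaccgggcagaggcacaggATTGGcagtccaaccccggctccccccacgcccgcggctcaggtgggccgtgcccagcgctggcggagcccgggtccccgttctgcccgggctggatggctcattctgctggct
Efnb1, chrX:99135811-99136110, plus strand: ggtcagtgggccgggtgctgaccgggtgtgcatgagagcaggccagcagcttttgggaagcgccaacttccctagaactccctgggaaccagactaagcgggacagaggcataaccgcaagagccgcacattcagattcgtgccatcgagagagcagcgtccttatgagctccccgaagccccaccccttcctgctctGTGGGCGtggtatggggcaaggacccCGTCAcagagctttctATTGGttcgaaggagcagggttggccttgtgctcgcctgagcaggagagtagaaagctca
The *Ephb3* window held GTGGGCG 115 bases before the start site, TGACG 79 bases before it, and GGGCGG 128 and 113 bases before it, the last of which overlaps GTGGGCG. Of the 7 windows, those of *Ephb3* and *Efnb1* held GTGGGCG, which 7.97% of 32851 windows of the same length did. TGACG was in 4 of 7 members' windows, those of *Ephb1*, *Ephb3*, *Efnb1* and *Efnb2*, and in 20.8% of all windows. The *Ephb2* window held a reverse-strand CCAAT 64 bases before the start site and no match to the other 3 motifs. CCAAT was in the windows of *Ephb1*, *Ephb2*, *Ephb4*, *Efnb1* and *Efnb2*, and in 37.4% of all windows. GGGCGG was in those of *Ephb3*, *Ephb4*, *Ephb6* and *Efnb2*, and in 35.7% of all windows. The full EGR site GCGTGGGCG (0.612% of all windows), the full cAMP response element TGACGTCA (1.79%) and the E-box CACGTG (7.15%) were in none of the 7 windows. These matches describe letters and say nothing of binding.

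**Figure D1:**
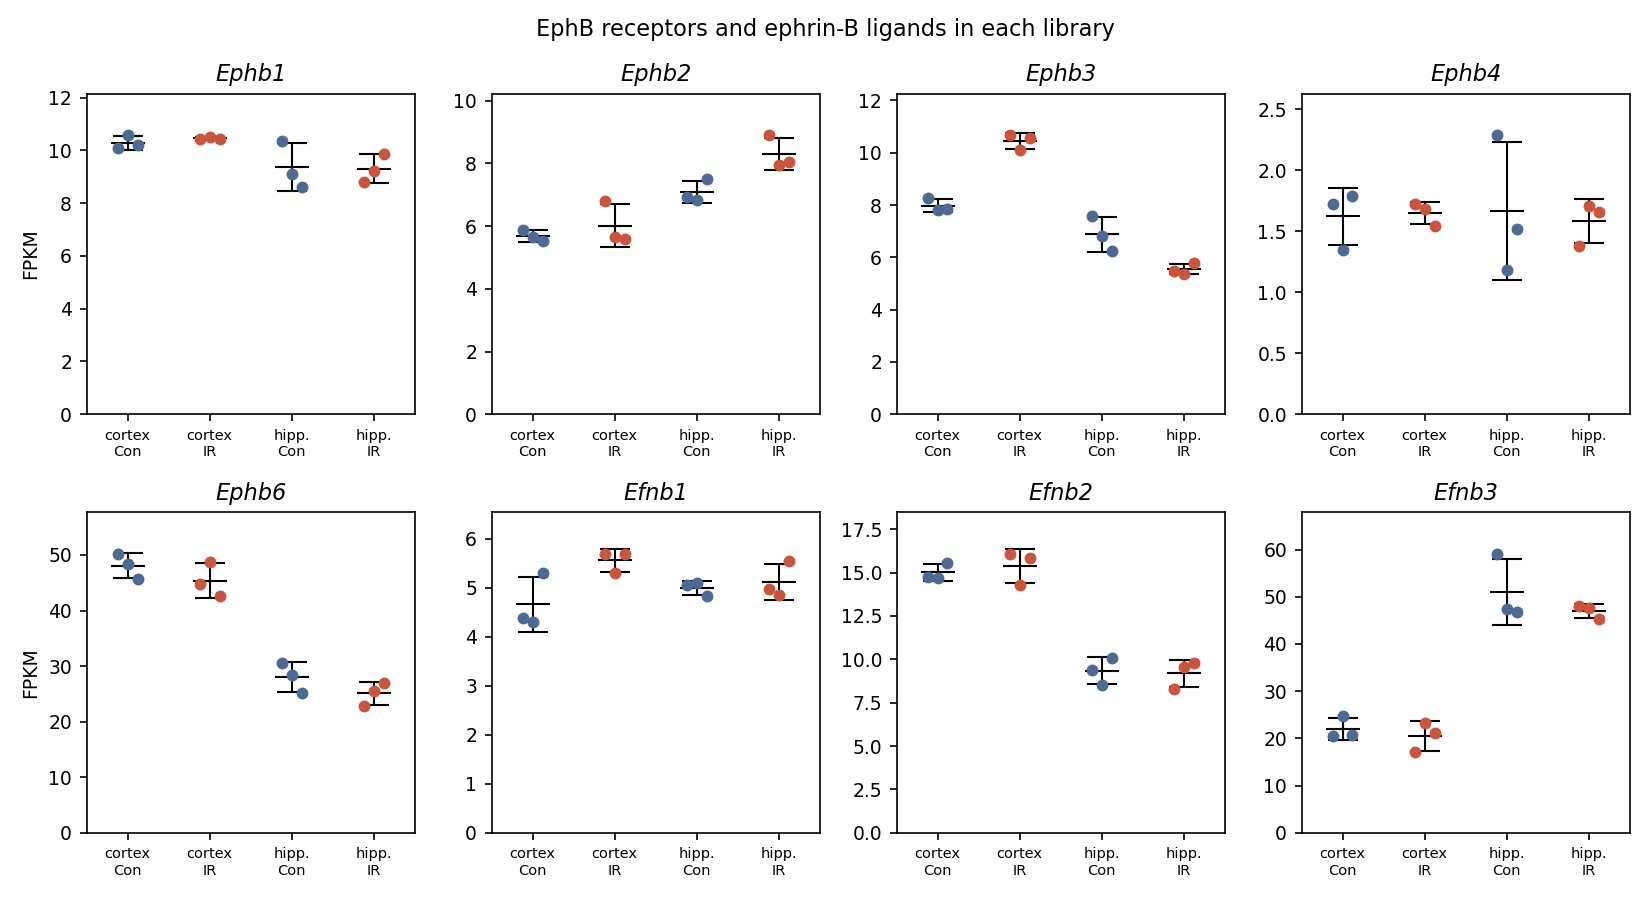
FPKM of each member in the 12 libraries, with a panel for each gene and its own vertical axis from 0. Points are libraries (blue Con, red IR), and the bars give the mean ± SD of 3 libraries. *Ephb3* points of the 2 IR groups lie apart from their Con groups in opposite directions.

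In the cortex of Con mice, the receptor *Ephb6*, whose kinase domain lacks catalytic activity, had the highest level of the family at 48.1 ± 2.25 FPKM (SD, n = 3), higher than 91.5% of the 18472 genes listed above 0 there. *Efnb3* followed at 21.96 ± 2.37, *Efnb2* at 15.01 ± 0.477, *Ephb1* at 10.3 ± 0.260, *Ephb3* at 7.98 ± 0.239, *Ephb2* at 5.69 ± 0.187 and *Efnb1* at 4.66 ± 0.556 FPKM. *Ephb4*, the receptor known from veins, was lowest at 1.62 ± 0.237 FPKM. No neighbours in this order overlapped in their libraries. The hippocampus of Con mice had another order. There *Efnb3*, a ligand known as a midline barrier to axons, led with 51.1 ± 6.95 FPKM, above 91.6% of 18260 genes, and *Ephb6* came next with 28.1 ± 2.71. The neighbours *Ephb1* and *Efnb2* (9.36 ± 0.902 and 9.33 ± 0.775 FPKM) overlapped, as did *Ephb2* and *Ephb3* (7.09 ± 0.36 and 6.89 ± 0.674). *Efnb1* at 4.99 ± 0.143 and *Ephb4* at 1.66 ± 0.566 FPKM again closed the list.

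Between the regions of Con mice, the ligand *Efnb3* was higher in the hippocampus, and the receptor *Ephb6* and the ligand *Efnb2* were lower. A smaller difference separated *Ephb2*, a receptor that binds NMDA receptors at synapses, which was higher in the hippocampus. These 4 of the 7 tested members passed an adjusted p under 0.05 (limma, Benjamini-Hochberg over 14459 genes), beside 44.2% of all genes. The same 4 passed an unadjusted p under 0.05, beside 51.1% of genes, and did not overlap between regions, beside 49.7% of genes. The median log2 difference of the 7 members was 0.01, and that of all genes 0.02.

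*Efnb3* was listed at 20.4, 24.7 and 20.8 FPKM in cortex Con libraries 1 to 3 and at 59.1, 47.3 and 46.8 in hippocampus Con. The lowest hippocampal library lay well above the highest cortical library, and the mean was 2.33 times higher (log2 difference 1.18 ± 0.11 SE, limma adjusted p = 2.23e-06). *Ephb6* was at 50.2, 48.4 and 45.7 FPKM in the cortex and at 30.6, 28.3 and 25.2 in the hippocampus, with a log2 difference of -0.76 ± 0.08 (limma adjusted p = 5.95e-06). *Efnb2*, the ligand known from arteries, was at 14.8, 14.7 and 15.6 FPKM in the cortex and at 9.37, 8.54 and 10.1 in the hippocampus. All its cortical libraries were higher, with a log2 difference of -0.63 ± 0.08 (limma adjusted p = 1.73e-05). *Ephb2* was at 5.89, 5.66 and 5.52 FPKM in the cortex and at 6.91, 6.85 and 7.50 in the hippocampus. Its regions were apart by 0.27 ± 0.08 on the log2 scale (limma adjusted p = 0.0122).

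The other 3 tested members did not pass. *Ephb1*, a receptor that steers retinal axons at the optic chiasm, had a log2 difference of -0.13 ± 0.07 with a 95% interval of -0.28 to 0.02. Without hippocampus Con 1, where it was highest at 10.4 FPKM, the difference of *Ephb1* was -0.19 and passed (limma adjusted p = 0.0341). *Efnb1*, an X-linked ligand needed for skull and face development, had 0.09 ± 0.08 (interval -0.09 to 0.26). *Ephb4* had 0.01 ± 0.13 (interval -0.28 to 0.29). *Ephb3*, given without a test, was at 8.25, 7.82 and 7.87 FPKM in cortex Con and at 7.60, 6.81 and 6.25 in hippocampus Con, with a log2 difference of -0.19 ± 0.07.

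The summed level of the ligands was higher in the hippocampus and that of the receptors higher in the cortex, although single members went against the sum of their class (*Efnb2* was lower and *Ephb2* higher in the hippocampus, as above). The summed level of the 5 receptors was 73.7 ± 2.53 FPKM in cortex Con and 53.1 ± 4.38 in hippocampus Con. The 3 ligands summed to 41.6 ± 2.06 FPKM in cortex Con and 65.4 ± 7.05 in hippocampus Con. All Con libraries of the regions were apart in both sums, which were set by few genes: the share of *Ephb6* among receptor FPKM was 65.3% ± 0.843 (cortex) or 52.9% ± 1.43 (hippocampus), while *Efnb3* made up 52.7% ± 3.43 and 77.9% ± 2.29 of ligand FPKM. The sums of IR libraries were 73.9 ± 2.99 (receptors) and 41.5 ± 2.31 (ligands) FPKM in the cortex and 49.8 ± 2.43 and 61.3 ± 0.735 in the hippocampus. In each region the ranges of Con and IR sums overlapped for receptors and for ligands. Within the receptors, the share of *Ephb3* was 10.8% ± 0.234 in cortex Con and 14.1% ± 0.905 in cortex IR, and 13.0% ± 0.214 and 11.1% ± 0.392 in the hippocampus.

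**Figure D2:**
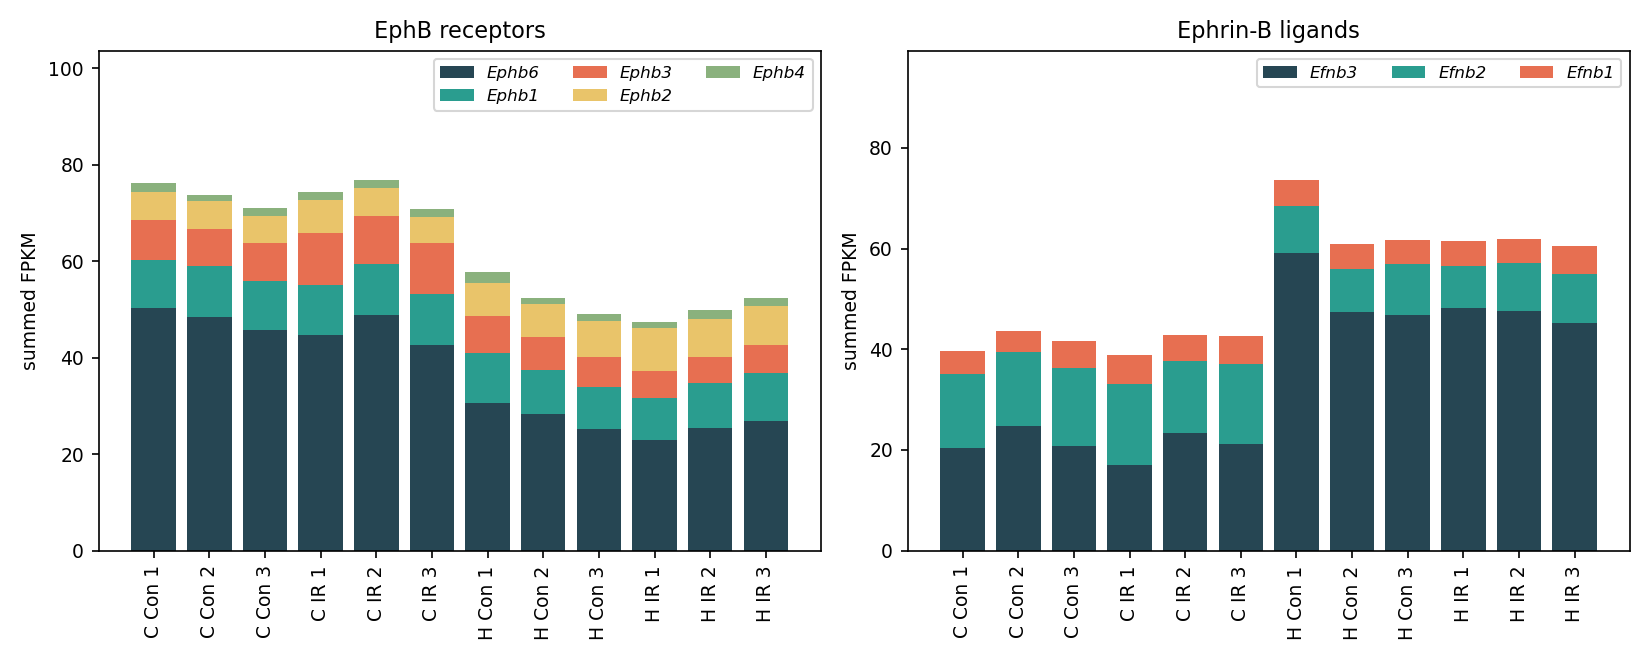
Summed FPKM of the 5 receptors (left) and the 3 ligands (right) in each library, stacked by gene. C is cortex, H is hippocampus, and the number is the library. *Ephb6* fills most of each receptor bar in the cortex, and *Efnb3* most of each ligand bar in the hippocampus.

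In the cortex, *Ephb3* was the member with the greatest difference between IR and Con. This receptor guides commissural axons and shapes dendritic spines together with *Ephb2*. Its libraries were at 8.25, 7.82 and 7.87 FPKM in Con and at 10.7, 10.1 and 10.6 in IR. Every IR library was above every Con library, by 1.31 times in the means (log2 difference 0.35 ± 0.06 SE). In cortex IR its level reached that of *Ephb1* (10.4 ± 0.307 against 10.5 ± 0.0516 FPKM), whereas in cortex Con all libraries of *Ephb3* were below those of *Ephb1*.

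Of the other 7 members in the cortex, 0 passed an adjusted p under 0.05 (limma, Benjamini-Hochberg over 14065 genes), beside 0.725% of genes. At an unadjusted p under 0.05, 1 passed, beside 14.1% of genes. A fold of at least 1.5 with an unadjusted p under 0.05, both from limma, was met by 0 of 7 members and 0.483% of genes. The study used a fold and a p of these sizes, without stating whether its p was adjusted. Libraries of IR and Con did not overlap in 0 of 7 members and in 20.3% of genes. The median log2 difference of the 7 was 0.02, and that of all genes 0.00.

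The member with an unadjusted p under 0.05 was *Efnb1*, with 4.39, 4.30 and 5.30186 FPKM in cortex Con and 5.70, 5.29981 and 5.69 in cortex IR. Con 3 and IR 2 thus overlapped by a small margin, and the log2 difference was 0.22 ± 0.09 (limma adjusted p = 0.304). With each library left out in turn, this difference ran from 0.17 without Con 2 to 0.30 without Con 3, with an unadjusted p of 0.0981 to 0.00591 that was over 0.05 without Con 1, Con 2, IR 1 or IR 3. *Ephb6* was at 44.7, 48.8 and 42.7 FPKM in cortex IR, against 45.7 to 50.2 in Con (log2 difference -0.08 ± 0.06, interval -0.22 to 0.06). *Efnb3* was at 17.03, 23.3 and 21.2 FPKM in cortex IR (-0.10 ± 0.11). *Ephb1*, *Ephb2*, *Ephb4* and *Efnb2* had log2 differences of 0.02 to 0.06, with intervals reaching from -0.20 to 0.25, and adjusted p of 0.790 to 0.954 (limma). *Ephb2* in cortex IR was at 6.80 FPKM in library 1 and at 5.65 and 5.58 in the others, so that a single library was above the Con range.

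**Figure D3:**
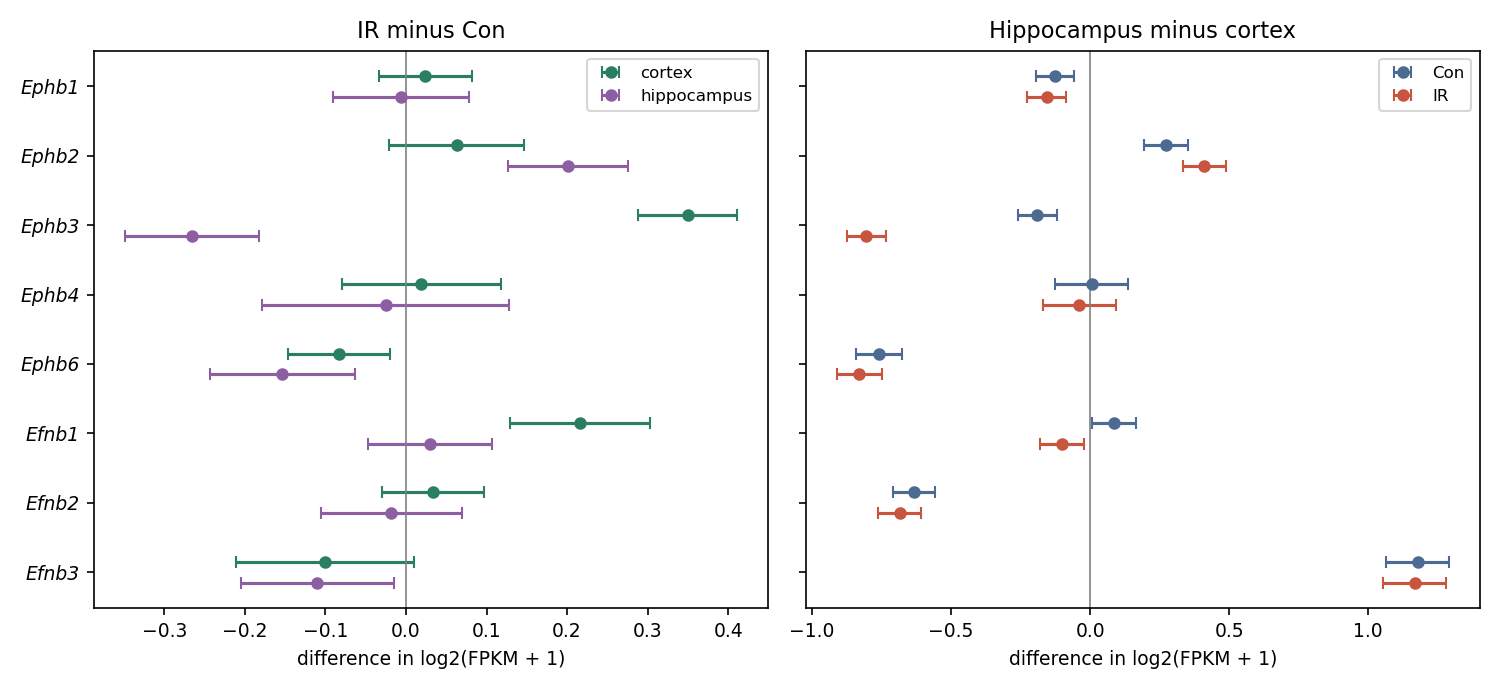
Differences in log2(FPKM + 1) for each member: IR minus Con in each region (left) and hippocampus minus cortex in Con and in IR (right). Points are limma estimates and bars ± SE. On the left, *Ephb3* is at 0.35 in the cortex and -0.27 in the hippocampus. On the right, its regional difference is -0.19 in Con and -0.81 in IR.

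In the hippocampus, *Ephb3* was lower in IR than in Con. It was at 7.60, 6.81 and 6.25 FPKM in Con and at 5.49, 5.38 and 5.77 in IR. No IR library reached the lowest Con library, and the mean was 0.805 of that of Con (log2 difference -0.27 ± 0.08 SE). The Con libraries were more spread than those of IR, with coefficients of variation of 9.79% and 3.59%. With a library left out, the difference ran from -0.32 without Con 3 to -0.20 without Con 1.

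*Ephb2* differed the other way there, with 6.91, 6.85 and 7.50 FPKM in Con and 8.89, 7.96 and 8.04 in IR. All IR libraries were above all Con libraries, 1.17 times in the means (log2 difference 0.20 ± 0.07, limma adjusted p = 0.326). Leaving out a library gave 0.16 without IR 1 to 0.24 without Con 3, and its unadjusted p, at most 0.101, was over 0.05 without Con 1, Con 2 or IR 1. It was the single member of 7 without overlap, beside 19.8% of genes, and the single member with an unadjusted p under 0.05, beside 13.9% of genes. At an adjusted p under 0.05, 0 of 7 members passed (limma, 14043 genes), beside 0.0285% of genes, and 0 of 7 met the fold of 1.5 with an unadjusted p under 0.05, beside 0.527% of genes. The median log2 difference of the 7 members was -0.02, and that of all genes -0.01.

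*Ephb6* was at 22.9, 25.5 and 26.9 FPKM in hippocampus IR and 25.2 to 30.6 in Con. Its log2 difference was -0.15 ± 0.09 (interval -0.36 to 0.05, limma adjusted p = 0.458). Without Con 3 it was -0.23 with an unadjusted limma p of 0.0265. *Efnb3* was at 48.1, 47.6 and 45.2 FPKM in IR, against 46.8 to 59.1 in Con (-0.11 ± 0.10). The value of *Efnb3* rested on Con 1, its highest library, and was -0.00301 without it. *Ephb4* varied most between libraries, at 2.29, 1.18 and 1.52 FPKM in Con and 1.38, 1.71 and 1.66 in IR, and the sign of its difference depended on which library was left out (-0.16 to 0.14). *Ephb1*, *Efnb1* and *Efnb2* had log2 differences of -0.01, 0.03 and -0.02, with intervals between -0.22 and 0.21.

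The IR effect on *Ephb3* in the hippocampus was lower than that in the cortex by 0.62 ± 0.10 (SE) on the log2 scale, coded as a difference of -0.62. This is the value for which *Ephb3* was singled out, and it was not tested. Its pattern, with all IR libraries above Con in the cortex and below Con in the hippocampus, was held by 0.447% of 13649 genes tested in both regions. With each library left out, it ran from -0.67 without hippocampus Con 3 to -0.55 without hippocampus Con 1. The regional difference of *Ephb3* was -0.19 in Con and -0.81 in IR, where the hippocampal mean was 0.531 of the cortical mean. For the other 7 members, the difference between the IR effects passed an adjusted p under 0.05 in 0, beside 0.083% of genes, and an unadjusted p under 0.05 in 0, beside 10.4% of genes (limma, 14459 genes). *Efnb1* had -0.19 ± 0.11 (interval -0.43 to 0.06), and without cortex Con 3 it was -0.27 with an unadjusted p of 0.0243. *Ephb2* had 0.14 ± 0.11 (interval -0.10 to 0.38). The other 5 members were between -0.07 and -0.01, and the median of the 7 was -0.04 against -0.01 for all genes. Each regional comparison uses the same Con libraries as the IR comparisons, so these values are not independent of them.

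**Figure D4:**
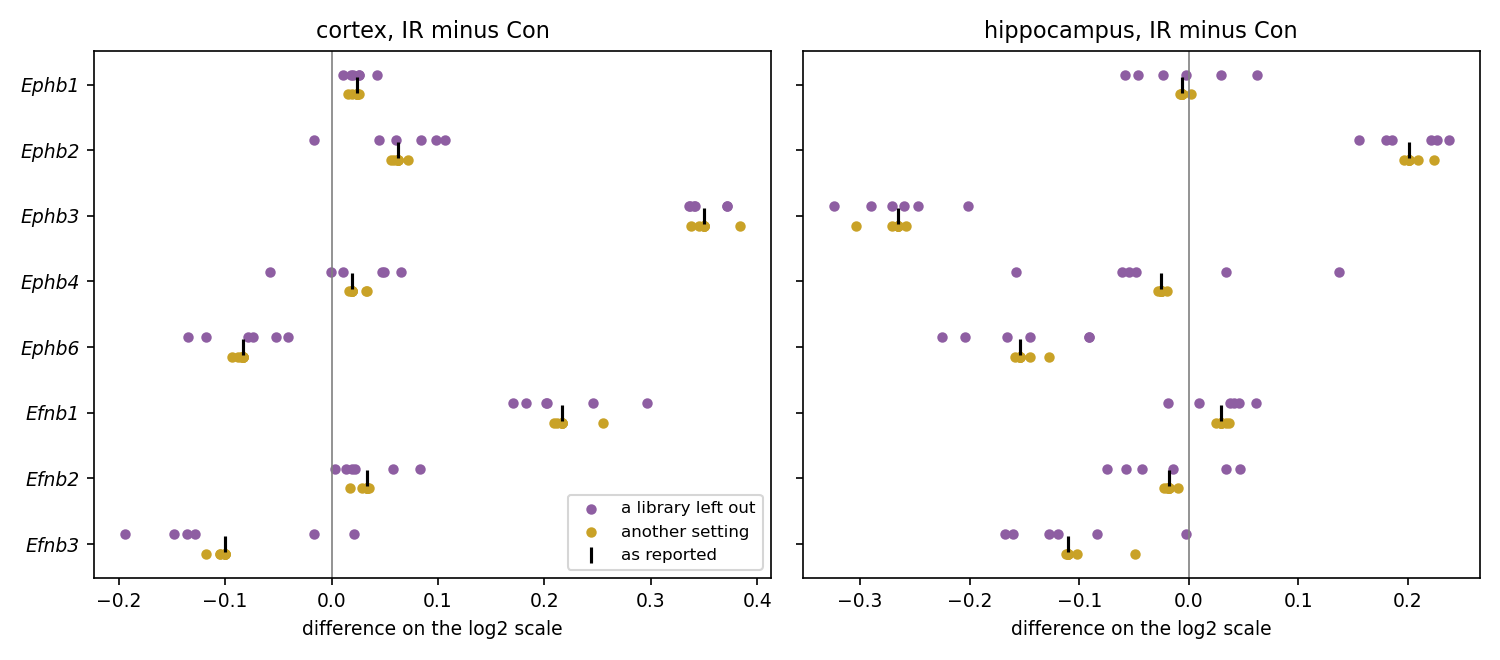
Log2 difference between IR and Con of each member in the cortex (left) and the hippocampus (right), as reported (black mark), with each library left out in turn (purple) and with another filter, pseudocount, scaling or fit (yellow). *Ephb4* lies on both sides of 0 in both regions, as do *Ephb2* and *Efnb3* in the cortex and *Ephb1*, *Efnb1* and *Efnb2* in the hippocampus. The other values of each member stay on a single side.

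Cell type lists are given beside these values, and their part in the members' differences was not tested. Their counts at an unadjusted p under 0.05 stand beside 8.16% of all genes higher and 5.94% lower in cortex IR, and 7.06% higher and 6.89% lower in hippocampus IR. Of 7 oligodendrocyte markers, 3 were higher in cortex IR and 3 were lower in hippocampus IR at an unadjusted p under 0.05, the same directions as *Ephb3*, with list medians of 0.11 and -0.23 on the log2 scale and 0 past an adjusted p under 0.05 (limma). Their summed level was 1062 to 1323 FPKM in cortex Con and 1324 to 1601 in cortex IR, and 1088 to 1327 and 1011 to 1272 in the hippocampus. Of 10 endothelial markers, 4 were higher in cortex IR and 2 in hippocampus IR at that unadjusted p. Their sums were 71.4 to 82.9 FPKM in cortex Con and 81.9 to 98.1 in IR, and 64.3 to 71.4 and 75.6 to 79.4 in the hippocampus, while *Efnb2* and *Ephb4*, the arterial and venous pair, overlapped between IR and Con in both regions. Microglial sums were lower in IR, 105 to 111 against 71.7 to 102 FPKM in the cortex and 104 to 114 against 74.2 to 81.2 in the hippocampus, with 3 and 5 of 6 markers at an unadjusted p under 0.05 and 1 in the hippocampus past an adjusted p under 0.05. Beside *Ephb2* in the hippocampus, 2 of 6 dentate granule cell markers were higher at that p, and their sums were 106 to 139 FPKM in Con and 136 to 146 in IR. Choroid plexus markers were uneven between libraries of a group, 4.54 to 30.5 FPKM in cortex Con and 15.96 to 437 in cortex IR, and 21.9 to 1050 in hippocampus Con and 23.3 to 1642 in hippocampus IR, with 0 markers at an unadjusted p under 0.05 between IR and Con in either region. Of the remaining lists, at an unadjusted p under 0.05, astrocyte markers were higher in 1 of 7 in cortex IR and lower in 3 in hippocampus IR, and oligodendrocyte precursor markers higher in 2 of 5 and lower in 1. The neuroblast list had 1 of 4 tested markers lower in cortex IR, the mural and interneuron lists 1 marker each lower in hippocampus IR, and the meningeal fibroblast list 1 higher there. The cortical layer and hippocampal pyramidal lists had 0 markers at that p in either region. Summed levels also lay in the directions of *Ephb3* for the cortical layer list, with 209.9 ± 16.9 FPKM in cortex Con and 225 ± 8.32 in cortex IR, and 43.3 ± 2.71 and 39.9 ± 2.08 in the hippocampus. The same held for the means of the astrocyte, oligodendrocyte precursor and interneuron sums. The astrocyte means in the cortex hardly differed, at 299 ± 37.2 FPKM in Con and 301 ± 13.0 in IR. The median log2 difference of the astrocyte list there was -0.006. The Con and IR libraries of the astrocyte, precursor and interneuron sums overlapped in both regions, except for the precursor list in the cortex (28.2 to 30.0 against 30.6 to 33.5 FPKM). No marker of these lists was at 0 in all 3 libraries of a group.

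The genes most like *Ephb3* were sought among 13648 genes tested in both regions, by Pearson correlation over the 12 libraries after the Con mean of each region was subtracted. This is a description, and the points share the same libraries and groups. The 5 closest were *Lrrc59* (r = 0.977), *Fnbp1l* (0.976), *AI414108* (0.976), *Eif4a1* (0.975) and *Dact3* (0.969). *Fnbp1l*, which encodes an adaptor of membrane curvature and actin, was at 27.8 ± 0.682 FPKM in cortex Con and 33.7 ± 0.587 in IR, and at 7.31 ± 0.767 and 5.93 ± 0.313 in the hippocampus. *Eif4a1*, a translation initiation helicase, was at 101 ± 2.37 and 111 ± 0.663 FPKM in the cortex and at 151 ± 7.96 and 140 ± 1.31 in the hippocampus. Within the family, *Efnb1* was closest to *Ephb3* (r = 0.65) and *Ephb2* farthest (r = -0.39). The closest genes to the other receptors were *Lmnb2* and *Ddx23* for *Ephb1* (r = 0.969 and 0.940), *Hdac4* and *Urod* for *Ephb2* (0.928 and 0.917), *Fam193a* and *Cox20* for *Ephb4* (0.916 and 0.906), and *5730409E04Rik* and *Snhg4* for *Ephb6* (0.960 and 0.941). For the ligands they were *Ipmk* and *Rybp* for *Efnb1* (0.944 and 0.936), *Usp42* and *Has3* for *Efnb2* (0.903 and 0.873), and *Col16a1* and *5330434G04Rik* for *Efnb3* (0.868 and 0.859).

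EphA receptors and ephrin-A ligands, the other class of the family, differed between regions in all 11 of 14 listed genes that passed the filter on low values (*Epha1*, *Epha2* and *Efna4* did not). In hippocampus Con, 7 were higher and 4 lower than in cortex Con at an adjusted p under 0.05 (limma), beside 44.2% of all genes in either direction, with a median log2 difference of 0.44 against 0.02 for all genes. *Epha7* was at 54.9 ± 6.83 FPKM in the hippocampus and 12.02 ± 0.644 in the cortex (log2 difference 2.10 ± 0.11, limma adjusted p = 8.18e-09), and *Epha6* was at 12.6 ± 0.644 and 3.22 ± 0.761 (1.70 ± 0.12, adjusted p = 1.36e-07). The ligand *Efna5* was at 1.46 ± 0.131 FPKM in the hippocampus and 9.58 ± 0.820 in the cortex (-2.10 ± 0.11, limma adjusted p = 6.22e-09). Between IR and Con, 0 of the 11 passed an adjusted p under 0.05 in either region or in the difference between regions. In the cortex 1 was higher and 2 lower at an unadjusted p under 0.05, beside 8.16% of all genes higher and 5.94% lower. *Epha8* was at 2.93 ± 0.573 FPKM in Con and 1.76 ± 0.128 in IR (-0.50 ± 0.11, limma adjusted p = 0.0930), *Efna1* at 4.03 ± 0.467 and 3.09 ± 0.266 (-0.30 ± 0.10), and *Epha10* at 13.7 ± 0.361 and 15.4 ± 0.848 (0.16 ± 0.06), with an unadjusted p over 0.05 under 5 of 14 alternatives. In the hippocampus 1 was lower, beside 6.89% of all genes lower. This was *Epha5*, at 15.7 ± 0.483 FPKM in Con and 13.8 ± 0.512 in IR (-0.17 ± 0.06), with an unadjusted p over 0.05 under 6 of 14 alternatives. The difference between the IR effects had an unadjusted p under 0.05 in 3 of 11, beside 10.4% of genes. These were *Epha8* (0.62 ± 0.17) and *Efna1* (0.57 ± 0.16), higher in the hippocampus, and *Epha10* (-0.33 ± 0.10), lower there, as *Ephb3* was.

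Partners and effectors of EphB and ephrin-B comprised 42 genes, all of which passed the filter: NMDA receptor subunits, exchange factors for small GTPases, Src-family kinases, adaptors, PDZ proteins, proteases and the Reelin pathway. Between the regions of Con mice, 20 were higher and 12 lower in the hippocampus at an adjusted p under 0.05 (limma), beside 44.2% of all genes in either direction, with a median log2 difference of 0.14 against 0.02 for all genes. The 3 with the greatest differences were all lower there. *Ngef*, an exchange factor downstream of Eph receptors, was at 35.2 ± 1.14 FPKM in the hippocampus and 129 ± 11.5 in the cortex (-1.85 ± 0.07, limma adjusted p = 6.14e-10). *Arhgef15*, an exchange factor under *Ephb2*, was at 1.68 ± 0.265 and 6.19 ± 0.178 FPKM (-1.43 ± 0.09), and *Grip2*, a PDZ scaffold that binds ephrin-B, at 2.18 ± 0.205 and 6.20 ± 1.17 (-1.17 ± 0.10).

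Between IR and Con, 0 of the 42 passed an adjusted p under 0.05 in either region or in the difference between regions (limma). At an unadjusted p under 0.05, 3 were higher and 1 lower in the cortex, beside 8.16% of all genes higher and 5.94% lower. In the hippocampus 0 were higher and 6 lower, beside 7.06% of all genes higher and 6.89% lower. The median log2 differences were 0.02 and -0.05, against 0.00 and -0.01 for all genes. In the cortex, *Reln*, the secreted Reelin, was at 9.41 ± 1.06 FPKM in Con and 7.43 ± 0.388 in IR (-0.30 ± 0.08), its receptor *Lrp8* at 12.2 ± 0.742 and 14.5 ± 0.319 (0.23 ± 0.06), and the adaptor *Nck1* at 8.51 ± 0.721 and 9.74 ± 0.630 (0.18 ± 0.08). The unadjusted p of *Nck1* was over 0.05 under 10 of 14 alternatives. In the hippocampus, *Dab1*, the intracellular adaptor of Reelin signaling, was at 46.4 ± 8.60 FPKM in Con and 32.4 ± 4.59 in IR (-0.50 ± 0.15, limma adjusted p = 0.273). *Rasa1*, a Ras GTPase-activating protein that binds EphB, was at 18.1 ± 2.01 and 15.2 ± 0.308 FPKM (-0.23 ± 0.08), and the kinase *Fyn* at 53.7 ± 5.86 and 45.9 ± 2.75 (-0.22 ± 0.09). The unadjusted p was over 0.05 under 4 of 14 alternatives for *Rasa1* and 7 of 14 for *Fyn*. Hippocampus Con 3 decided the calls of *Dab1* and *Fyn*: without it, their differences were -0.65 and -0.31 and passed (limma adjusted p = 0.0324 and 0.0427), among the 861 genes called in all at that setting against 4. In the difference between the IR effects, 0 were higher and 7 lower at an unadjusted p under 0.05, beside 4.77% of all genes higher and 5.61% lower. The 7 were led by *Dab1* (-0.53 ± 0.18), the adaptor *Nck2* (-0.38 ± 0.16) and *Rasa1* (-0.31 ± 0.11). The unadjusted p of *Nck2* was over 0.05 under 8 of 19 alternatives. *Dab1* and *Nck2* passed without hippocampus Con 3, at -0.68 and -0.55 (limma adjusted p = 0.0358 and 0.0167), among 487 genes called there against 12.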

How the data were processed

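RNA-seq libraries came from cortex and hippocampus of Con and IR mice, with 3 libraries in each of 4 groups, assigned by their labels. The authors trimmed the reads, aligned them with TopHat to mm10, estimated FPKM with Cufflinks and deposited 1 FPKM value per gene symbol and library. They also name a geometric normalization, and whether it came before or after the FPKM estimate, like versions and annotation, is not given in the sources used here. The libraries were made with a strand-marking kit; the labels name Trizol and total RNA, and the study's methods a lipid tissue column kit and poly(A) selection, so whether the FPKM cover RNA without a poly(A) tail is not known. Because a library holds FPKM and no counts, precision was judged from the spread of the 3 libraries. No 2 libraries were identical.

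Values were transformed to log2(FPKM + 1), a scale that understates changes of low genes. A filter kept genes that reached 0.5 FPKM in 3 or more of a region's 6 libraries, and these were fitted with limma 3.58.1 (R 4.3.3, intensity trend, robust prior), and p-values were adjusted by the Benjamini-Hochberg method over all tested genes. IR was compared with Con within each region. Regional differences in Con and the difference between the IR effects came from a single fit of all 12 libraries. The pipeline was tested on simulated data with planted changes greater than any IR difference of a member. That test therefore says nothing of how well differences of the members' size are found. Tables and figures were made with Python 3.11.15. All 8 members passed the filter in both regions.

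The members and gene lists were chosen with earlier results of these data known. Named genes were the members, from each pathway list up to 3 genes per comparison with the greatest log2 difference among those with an unadjusted p under 0.05, and the genes most correlated with each member (5 for *Ephb3*, 2 for the others). Libraries of the 4 groups share numbers, and no label says that a shared number means a shared mouse. Correlations of same-numbered deviations were between -0.39 and 0.17. These cannot show whether the numbers pair libraries, and the main fits used no pairing. Alternatives were a pseudocount of 0.1, no filter, at least 1 FPKM in every library, quantile and median ratio scaling, limma without trend or robust prior, and a replicate block. Others were all 12 libraries in 1 fit for the IR comparisons, the Con libraries alone for the regional difference, and leaving out each library in turn. Gene positions are from GENCODE M21 on GRCm38. Marker lists were endothelial, mural, astrocyte, oligodendrocyte and precursor, microglia, neuroblast, dentate granule cell, hippocampal pyramidal, cortical layer, interneuron, choroid plexus and meningeal fibroblast.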

Additional observations from a re-analysis of the deposited data

Results flagged for a closer look

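*Ephb3* was the single member whose IR libraries were all above the Con libraries in the cortex and all below them in the hippocampus, as were those of 0.447% of 13649 genes tested in both regions. The difference between the IR effects, hippocampus minus cortex, was -0.62 on the log2 scale. This difference was not tested, because *Ephb3* was singled out for it.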

How the results depend on the processing

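Of the 7 tested members, the count past an adjusted p under 0.05 was the same under 66 of 67 alternatives over the 4 comparisons; without hippocampus Con 1 it was 5 in place of 4 between the regions, with *Ephb1* added. The count with an unadjusted p under 0.05 was 0 to 1 in the cortex, 0 to 2 in the hippocampus and 0 to 1 for the difference between the IR effects with each library left out in turn. The count over all genes at that threshold moved as well: from 1983 to between 1227 and 2119 in the cortex, from 1958 to between 1171 and 3620 in the hippocampus, where 3620 and the 2 members both came without Con 3, and from 1500 to between 1081 and 2887 for the difference between the IR effects. With the replicate block the count of members was 0 in the hippocampus, where *Ephb2* had an unadjusted limma p of 0.0561, and that over all genes was 1423. The block changed no call of a member at an adjusted p under 0.05. Counts over all genes at that threshold moved more: 102 in the cortex became 24 without the filter, 22 without trend or robust prior and 17 without IR 1, 4 in the hippocampus became 74 with all 12 libraries in 1 fit and 861 without Con 3, and 12 for the difference between the IR effects became 487 without hippocampus Con 3, 19 with at least 1 FPKM in every library, and 0 without trend or robust prior or with the replicate block. The cause was not tested.

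*Ephb3* and *Ephb6* kept their sign under all alternatives. For *Ephb3* this was fixed in advance when a library was left out, because none of its compared groups overlapped. With a pseudocount of 0.1 the difference between the IR effects on *Ephb3* was -0.69. Signs that turned with another setting were those of small values: *Ephb1* in the hippocampus with median ratio scaling (0.00157), *Ephb4* between the regions with a pseudocount of 0.1 (-0.00436) and median ratio scaling (-0.00862), and *Efnb3* in the difference between the IR effects with quantile normalization (0.0671) and median ratio scaling (0.00646). With each library left out in turn, signs also turned in the cortex for *Ephb2* (-0.0162 to 0.107), *Ephb4* (-0.0577 to 0.0651) and *Efnb3* (-0.194 to 0.0215). In the hippocampus they turned for *Ephb1* (-0.0580 to 0.0622), *Ephb4* (-0.158 to 0.137), *Efnb1* (-0.0191 to 0.0608) and *Efnb2* (-0.0743 to 0.0463), and between the regions for *Ephb4* (-0.157 to 0.138). In the difference between the IR effects they turned for *Ephb1* (-0.0817 to 0.0384), *Ephb4* (-0.177 to 0.118), *Efnb2* (-0.107 to 0.0132) and *Efnb3* (-0.132 to 0.0973). A group left with 2 libraries was fitted on the assumption that its spread is that of the other genes and groups.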
